A study of Mus musculus with 12 samples.

Results

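The Zbtb20 and Tigit locus was examined peak by peak in H3K27ac maps of the mouse cerebral cortex at E15.5. It comprised the gene body of Zbtb20 (chromosome 16, 42875689 to 43634392, mm10) and that of Tigit (43626137 to 43665125), each with 20 kb added on both sides. The gene bodies overlap by 8256 bp and the windows by 48256 bp, so the locus is 1 stretch of 829437 bp. It holds 2 of 21883 protein-coding genes and 51 of the 85918 regions obtained by merging the peaks of all 6 libraries. The cKO libraries had 37, 33 and 32 peaks there, of 59209, 58682 and 55015 in their lists. The WT libraries had 46, 45 and 33, of 66493, 75563 and 48168. The pair was taken up because the length covered by peaks in the Tigit window differed between the genotypes in a fit to these same lists. Every difference between cKO and WT inside the locus is therefore a description and carries no test.

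The cKO embryos were Emx1Ires-Cre; Prdm16flox/flox, with 3 H3K27ac libraries, and the WT embryos were Prdm16 flox/flox without Cre, with 3 libraries. Both genotypes thus carry the floxed allele. Chromatin was digested with micrococcal nuclease without crosslinking and precipitated with an H3K27ac antibody. Emx1-driven Cre acts in the dorsal forebrain lineage, whereas the whole-cortex lysate also holds interneurons, vessel cells and microglia that keep Prdm16, a chromatin regulator with zinc fingers that is active in cortical progenitors. The 6 input libraries were not analysed here. Nothing in the labels says whether replicates were separate embryos, so a spread between replicates may be technical. Replicates 1 and 2 of both genotypes share 1 library identifier (batch A) and replicate 3 of both another (batch B).

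Acetylation of lysine 27 on histone H3 decorates promoters and enhancers in use, and long active genes often carry many acetylated sites between their ends. Zbtb20 encodes a BTB-domain zinc-finger transcription factor, mostly a repressor, known from mouse work for specifying hippocampal pyramidal neurons and for roles in later-born cortical neurons and in astrocyte formation. Tigit encodes an inhibitory receptor of T cells and natural killer cells that binds the poliovirus receptor and nectins, and it has no established role in cortical neurons. The promoter table places the Tigit start on the minus strand and the Zbtb20 start on the plus strand, so the genes point towards each other and meet at their 3′ ends.

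Sequence is shown for 3 start windows, to set the acetylated 5′ end of Zbtb20 beside the listed starts of Zbtb20 and Tigit. Each runs from 250 bases before to 50 after a RefSeq transcript start (GRCm38.p6), 5′ to 3′ on its own strand, with CG dinucleotides in capitals. The first belongs to the long noncoding RNA 4932412D23Rik (chr16:42875713-42876012, minus strand) and lies just inside the low-coordinate, 5′ end of Zbtb20. Another start window of this RNA (chr16:42875538-42875837), not printed, spans that end. It holds 13 CG dinucleotides, and peaks covered all its 300 bases in all 6 libraries. The second is the only Zbtb20 start in the table (chr16:43247034-43247333, plus strand), deep inside the gene body, and the third is the Tigit start (chr16:43664135-43664434, minus strand).
4932412D23Rik: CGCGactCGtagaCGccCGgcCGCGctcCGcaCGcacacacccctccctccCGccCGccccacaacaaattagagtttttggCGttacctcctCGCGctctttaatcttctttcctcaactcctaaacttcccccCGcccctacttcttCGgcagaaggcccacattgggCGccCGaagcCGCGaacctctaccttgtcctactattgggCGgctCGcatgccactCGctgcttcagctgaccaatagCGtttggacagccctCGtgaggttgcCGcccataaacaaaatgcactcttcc
Zbtb20: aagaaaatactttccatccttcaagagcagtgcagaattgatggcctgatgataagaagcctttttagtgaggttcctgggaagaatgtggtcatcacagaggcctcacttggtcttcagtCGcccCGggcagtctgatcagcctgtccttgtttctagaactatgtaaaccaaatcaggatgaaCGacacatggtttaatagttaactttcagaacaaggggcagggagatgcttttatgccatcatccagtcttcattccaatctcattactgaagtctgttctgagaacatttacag
Tigit: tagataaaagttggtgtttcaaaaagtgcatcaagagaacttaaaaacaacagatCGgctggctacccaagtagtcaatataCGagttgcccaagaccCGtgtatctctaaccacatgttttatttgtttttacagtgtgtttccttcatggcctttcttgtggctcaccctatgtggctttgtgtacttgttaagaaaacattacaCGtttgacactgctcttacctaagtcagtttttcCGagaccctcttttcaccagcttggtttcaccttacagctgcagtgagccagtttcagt
Peaks covered all 300 bases of the 4932412D23Rik window in all 6 libraries. They covered 0 bases of the Zbtb20 window and 0 bases of the Tigit window in all 6, and the nearest merged regions lay 10565 and 7037 bp away. The letters CG occur 26 times in the first window, 3 times in the second and 5 times in the third. Across 32851 start windows of the same table the median was 7, and 94.6% held at least 1. The absence of a peak says only that none was called at these coordinates. The 5′ end of the Zbtb20 body, at 42875689, lay in a region with a peak in all 6 libraries.

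Peak lists hold no read counts, so depth is unknown and the values below are lengths of sequence under called peaks. Total covered length was 63.5 to 72.9 Mb in cKO libraries and 53.9 to 92.1 Mb in WT libraries, and lengths were therefore scaled to the same total over gene windows. Cortical identity was checked with 7 dorsal cortex markers, all with a peak in every library (summed scaled length 156629 to 176737 bp in cKO and 154838 to 195358 bp in WT). Of 7 T and natural killer cell markers, Cd3e and Ncr1 had 0 bp in every library and 4 had peaks in all 6. The 7 summed to 19503 to 22096 bp in cKO and 18968 to 20968 bp in WT, mostly in the Cd4 and Klrb1c windows. All marker lengths are of gene windows with 20 kb on both sides, so they can include peaks of neighbouring genes. Of 4 microglial markers 2 had peaks in all 6, and the summed length was 7407 to 8030 bp in cKO and 8778 to 9498 bp in WT, without overlap. Cx3cr1, a chemokine receptor of microglia, had 0, 266 and 0 bp in cKO and 1721, 1267 and 697 bp in WT. At Csf1r, P2ry12 and Aif1 the genotypes overlapped. Aif1 had 5765, 6646 and 6935 bp in cKO and 5181, 5745 and 7076 bp in WT. Csf1r had 1386, 798 and 786 bp in cKO and 1353, 1322 and 1260 bp in WT. P2ry12 had 256, 320 and 249 bp in cKO and 522, 1164 and 0 bp in WT. The part of microglia in the values below was not tested. The 3 endothelial markers summed to 7935 to 8843 bp in cKO and 6745 to 10052 bp in WT, the 5 ventral forebrain and interneuron markers to 72938 to 81571 bp in cKO and 61633 to 85602 bp in WT (Nkx2-1 at 0 bp throughout), and the 3 astrocyte markers to 10001 to 11986 bp in cKO and 10362 to 14716 bp in WT. In a tissue lysate, fewer acetylated cells and less acetylation per cell cannot be told apart.

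Across the Zbtb20 window, H3K27ac was shorter in every cKO library than in any WT library. The scaled covered length was 56365, 53406 and 55164 bp in cKO and 71081, 77339 and 66460 bp in WT. The mean was 54978 ± 1488 bp in cKO and 71627 ± 5460 bp in WT (SD, n = 3 each), a log2 change of -0.38 ± 0.10 (SE of the limma fit). Before scaling the genotypes overlapped, since WT replicate 3 had 51129 bp, less than the 56730 and 52834 bp of cKO replicates 1 and 2. Within batch A the difference of means was -19325 bp, and within batch B, with 1 library per genotype, it was -11296 bp.

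The Tigit window showed a larger relative difference over a much smaller length. Its scaled covered length was 2189, 2638 and 1952 bp in cKO and 5724, 7263 and 3799 bp in WT. The genotypes did not overlap, before scaling either, where the closest values were 2610 bp in cKO replicate 2 and 2923 bp in WT replicate 3. The mean was 2260 ± 349 bp in cKO and 5596 ± 1735 bp in WT (SD, n = 3 each), a log2 change of -1.11 ± 0.14 (SE of the limma fit). The difference was -4080 bp within batch A and -1847 bp within batch B. In the fit to 15355 gene windows that led to the choice of this locus, 24 windows were called shorter in cKO (0.156%) and 19 longer (0.124%). Tigit was 1 of those called shorter and Zbtb20 was not called, and nothing is read from that count because it selected the pair. Without scaling 0 windows were called shorter, so Tigit was not called there. These log2 changes are of covered length plus 500 bp, which understates changes of short lengths.

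**Figure D1:**
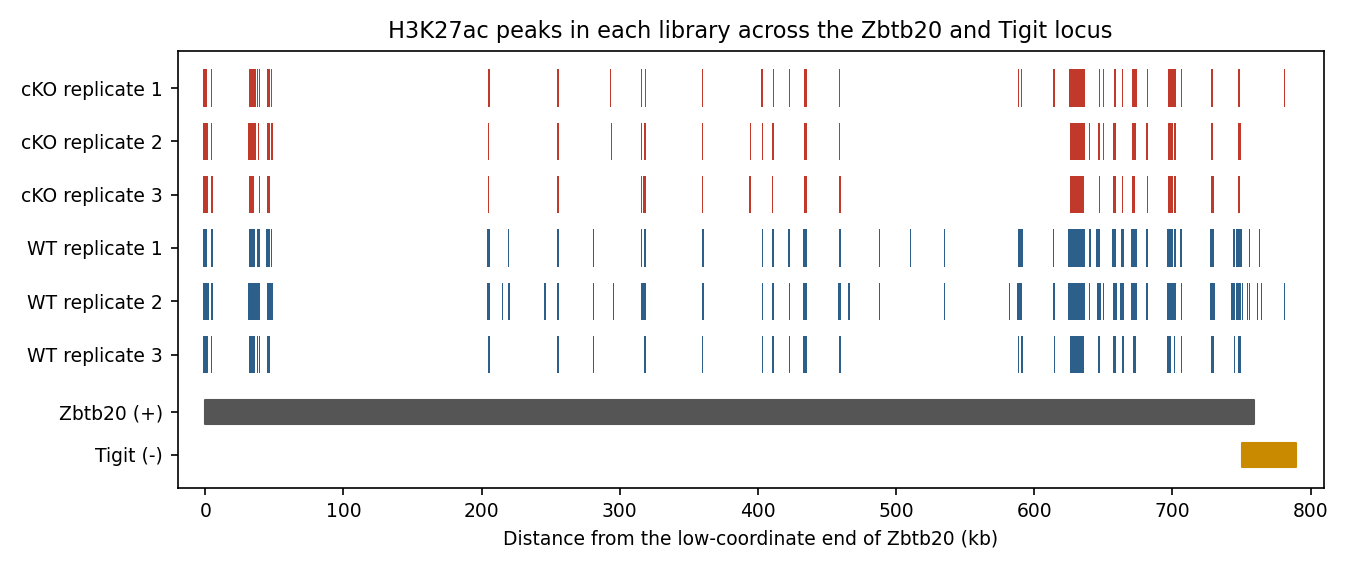
Called H3K27ac peaks of each library (rows, cKO above WT) across the locus, against the distance from the low-coordinate end of Zbtb20 in kb, with both gene bodies and their strands drawn below. The 5′ end of Zbtb20 and a broad domain 121919 bp from its 3′ end are marked in all 6 libraries, and the Tigit body holds few peaks. Peaks of the broad domain are 10574 to 12087 bp wide.

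**Figure D2:**
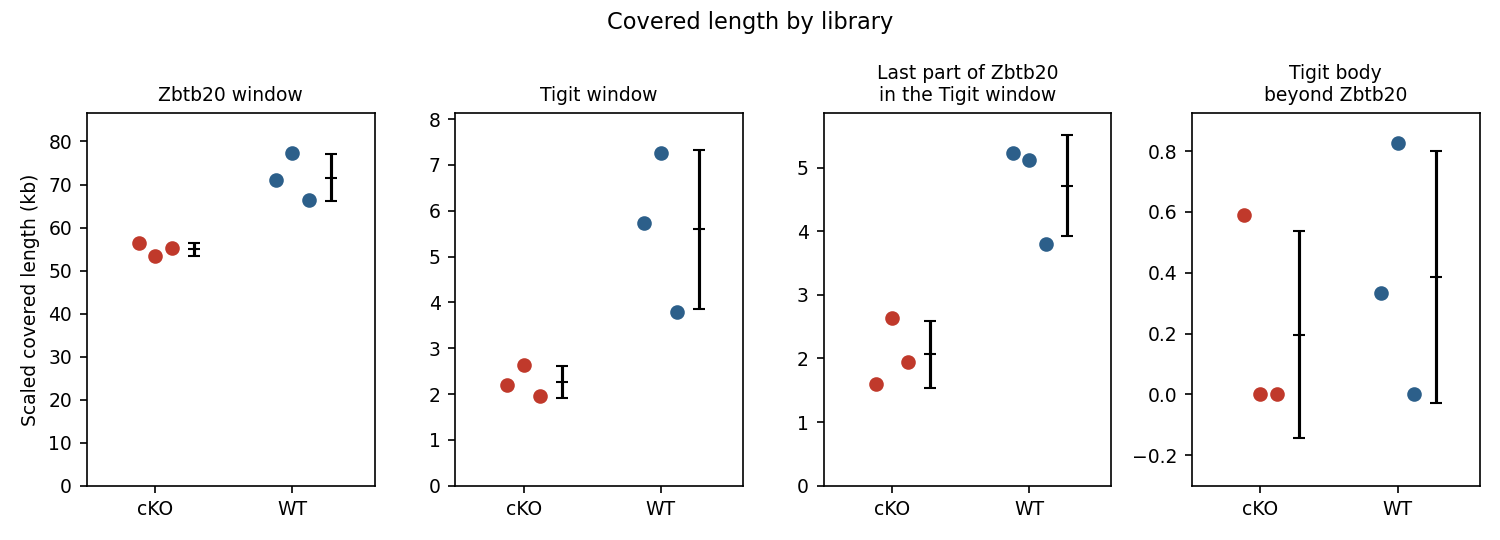
Scaled covered length in kb for each library (points), with the mean and SD to the right of the points (n = 3 each). In the Zbtb20 window, the Tigit window and the last 20000 bp of Zbtb20 before Tigit all cKO libraries lie below all WT libraries, while in the Tigit body beyond Zbtb20 the genotypes overlap.

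Almost all of the shorter length in the Tigit window lay inside the Zbtb20 gene. The 20000 bp of the window that precede the Tigit body, all within Zbtb20, had 1599, 2638 and 1952 bp in cKO and 5232, 5113 and 3799 bp in WT. That stretch made up 79.5% of the difference in the Tigit window. The 8256 bp shared by the gene bodies had 0 bp in all 3 cKO libraries and 160, 1324 and 0 bp in WT, or 14.8% of the difference, with WT replicate 2 contributing most. Together 94.3% of the difference lay inside the Zbtb20 body. The 30733 bp of Tigit beyond the end of Zbtb20 had 590, 0 and 0 bp in cKO and 332, 826 and 0 bp in WT, so the genotypes overlapped there. The 20000 bp past the 5′ end of Tigit held no peak in any library. Without the part inside Zbtb20 the log2 change of the Tigit window was -0.34, an alternative added after the values were seen.

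The window's length came mainly from 1 region that every library shared. It spanned 43621655 to 43626469, all inside Zbtb20 and 37715 bp from the Tigit start. Only a 369 bp peak of WT replicate 2 (43626101 to 43626469) reached into the Tigit body, where the gene bodies overlap. Scaled length in the whole region was 1599, 2315 and 1952 bp in cKO and 3960, 3303 and 3354 bp in WT. The main peak was 1609, 2290 and 1740 bp wide before scaling in cKO and 4448, 3662 and 2580 bp wide in WT. The strongest peak of the region had a fold enrichment, as given by the authors' peak caller, of 5.46, 6.29 and 5.61 in cKO and 6.13, 6.21 and 6.21 in WT. Such scores belong to each list and were not compared between lists. The cKO peaks thus sat at the same place and were narrower.

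The neighbouring region at 43618386 to 43620790 lay 5347 bp before the Tigit body. It had 0, 323 and 0 bp in cKO and 1271, 1952 and 446 bp in WT, without overlap. Before scaling the closest values were 320 bp in cKO replicate 2 and 343 bp in WT replicate 3. The remaining 6 regions that touch the Tigit body, between 43629589 and 43657098, had a peak in 1 or 2 libraries each. WT replicate 2, the longest list, was present in 5 of these 6, and the one nearest to the Tigit start, at 43656505 to 43657098, was in cKO replicate 1 and WT replicate 2.

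**Figure D3:**
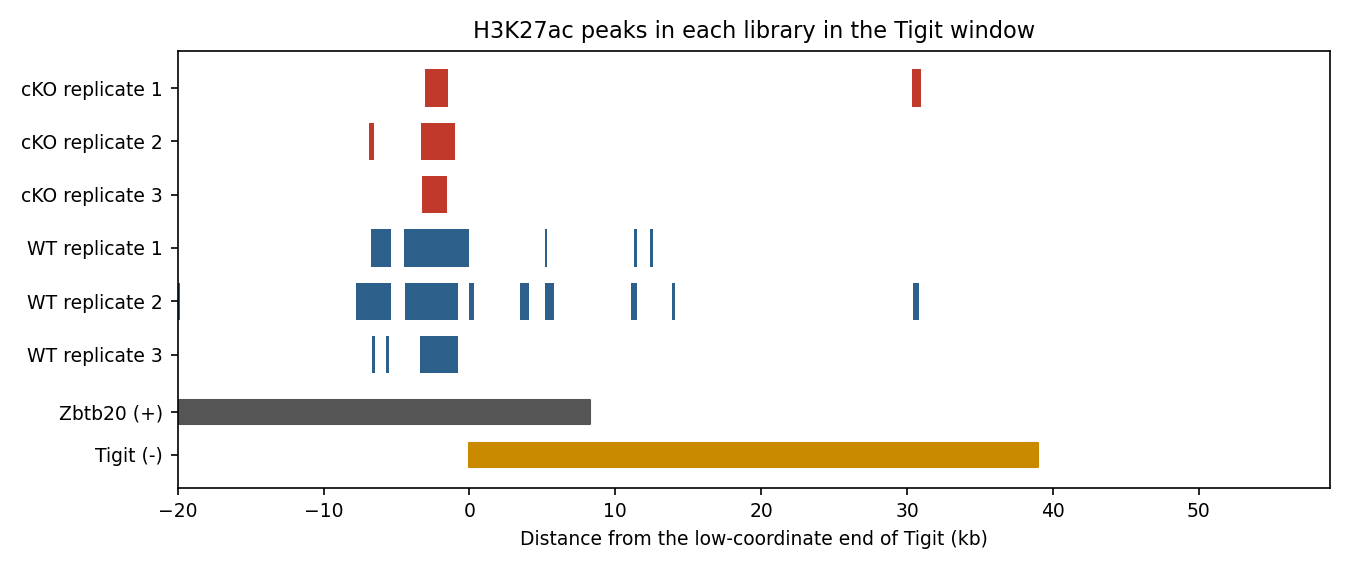
Called H3K27ac peaks of each library in the Tigit window, against the distance from the low-coordinate end of Tigit in kb, with both gene bodies below. The largest peaks of all libraries lie before the Tigit body, inside Zbtb20, and are 1609 to 2290 bp wide in cKO and 2580 to 4448 bp wide in WT.

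Of the 3 strongest sites of the locus, the genotypes overlapped in length at the first and second and not at the third. By the lowest -log10 q among the 6 libraries, the first was a domain of 12087 bp at 43500387 to 43512473, inside Zbtb20 and 121919 bp from its 3′ end. It had 11686, 10839 and 12031 bp in cKO and 10762, 9575 and 13745 bp in WT, with the cKO values inside the WT range. Its -log10 q in the authors' lists was 37.0 to 51.0 in cKO and 35.4 to 51.0 in WT. The second, at 42874030 to 42878125, covered the 5′ end of Zbtb20 and the 4932412D23Rik start window printed above. It had 2940, 3422 and 3775 bp in cKO and 2685, 3356 and 4118 bp in WT, a difference of means of -7.39 bp. The third, at 43308348 to 43311039, was shorter in every cKO library, with 1949, 1891 and 2084 bp in cKO and 2163, 2206 and 3176 bp in WT. Further towards the 3′ end, the region at 43571854 to 43578149 had 5503, 4732 and 5221 bp in cKO and 4539, 5093 and 4334 bp in WT, with the cKO mean the longer. Regions over start windows of other noncoding genes also overlapped between the genotypes. The one over the Gm19522 start, at 42906750 to 42915367, had 5929, 6792 and 5724 bp in cKO and 6342, 7062 and 6476 bp in WT. The one over the Gm9968 start, at 43363297 to 43364307, had 428, 223 and 549 bp in cKO and 592, 828 and 0 bp in WT.

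Of the 51 regions, 41 had a shorter and 10 a longer mean scaled length in cKO. In 10 regions every cKO library was shorter than any WT library, and in 0 every cKO library was longer. Over all merged regions these shares were 4.66% and 5.13%. A peak in all 3 WT and no cKO library was found in 2 regions (0.907% of all merged regions), and the converse in 0 regions (0.347%). Leaving out WT replicate 3, the shortest list, gave 19 in place of 10 and 6 in place of 2. Regions longer in every cKO library numbered 2 without cKO replicate 1, and 1 without cKO replicate 2, cKO replicate 3, WT replicate 2 or WT replicate 3. Regions found in cKO only numbered 1 without cKO replicate 1 or cKO replicate 3. A peak in all 6 libraries was present in 21 regions of the locus (41.2%, against 46.4% of all merged regions), and their median log2 ratio of cKO to WT mean length was -0.21, against 0.04 over the 39889 such regions of the genome. Among those 21, 6 were shorter in every cKO library, against 5.58% of such regions in the genome, and 0 were longer, against 7.65%. The locus was chosen by this contrast, so nothing is read from these shares.

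The difference extended beyond the Tigit end of Zbtb20, and its largest parts lay towards the 3′ end of the gene. In steps of 50 kb the locus has 17 bins, of which 15 held peaks, 14 had a shorter and 1 a longer mean length in cKO. Within batch B, cKO was longer in the bins beginning 230, 280, 480 and 680 kb from the low-coordinate end of Zbtb20. The differences there, with 1 library per genotype, were 126, 545, 549 and 825 bp. In the remaining bins with peaks the batch B difference was negative or 0. In 4 bins every cKO library was shorter than any WT library, against 7.39% of all bins of that length with a peak, and in 0 every cKO library was longer, against 5.67%. The 4 made up 69.6% of the net difference of -16556 bp, and nothing is read from these shares. They begin 180, 580, 630 and 730 kb from the low-coordinate end of Zbtb20, with 11.1%, 17.6%, 19.3% and 21.6% of the net difference. In the bins at 580 and 630 kb the genotypes overlapped before scaling. The last of them, which holds the Zbtb20 and Tigit overlap, had a mean of 2063 ± 529 bp in cKO and 5635 ± 1730 bp in WT (SD, n = 3 each). The first 50 kb had 3706, 4193 and 4933 bp in cKO and 3636, 4358 and 5284 bp in WT, so the genotypes overlapped at the 5′ end.

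The largest single difference lay at 43463098 to 43467246, inside Zbtb20 and 158891 bp from the Tigit body. The region had 1077, 0 and 239 bp in cKO and 3073, 3250 and 1747 bp in WT. Its peaks were weak in the 5 lists that held any, with a highest -log10 q of 2.29 in cKO and 3.91 in WT by the authors' peak caller. The region at 43538004 to 43540814 had 1178, 496 and 952 bp in cKO and 2238, 2280 and 1689 bp in WT. At 43520701 to 43523878 the lengths were 1007, 1255 and 910 bp in cKO and 2244, 2514 and 1339 bp in WT. In all 3 regions the genotypes did not overlap after scaling, and the closest pair of values was 1255 bp in cKO and 1339 bp in WT. Before scaling the genotypes overlapped at 43520701 to 43523878, with 1242 bp in cKO replicate 2 and 1030 bp in WT replicate 3. At 43602543 to 43606296, which ends within the first bases of the Tigit window, the lengths were 1373, 1377 and 2457 bp in cKO and 2418, 3076 and 3090 bp in WT. There cKO replicate 3 exceeded WT replicate 1.

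Further towards the 5′ end, a region at 43079820 to 43081625 had 1205, 955 and 469 bp in cKO and 1556, 1480 and 1948 bp in WT. The region at 43285733 to 43287362 had 834, 931 and 736 bp in cKO and 1393, 1177 and 1942 bp in WT. Both were shorter in every cKO library. At 43297606 to 43298852 the lengths were 902, 341 and 0 bp in cKO and 1052, 865 and 1111 bp in WT, so the genotypes overlapped. The regions found in WT only were 1640 and 470 bp wide. The wider, at 43094633 to 43096272, had 709, 1333 and 442 bp in WT. The narrower, at 43156240 to 43156709, had 343, 159 and 547 bp in WT. No cKO list has a peak at either. The 10 regions with the largest shortening made up 59.9% of all shortening in the locus.

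**Figure D4:**
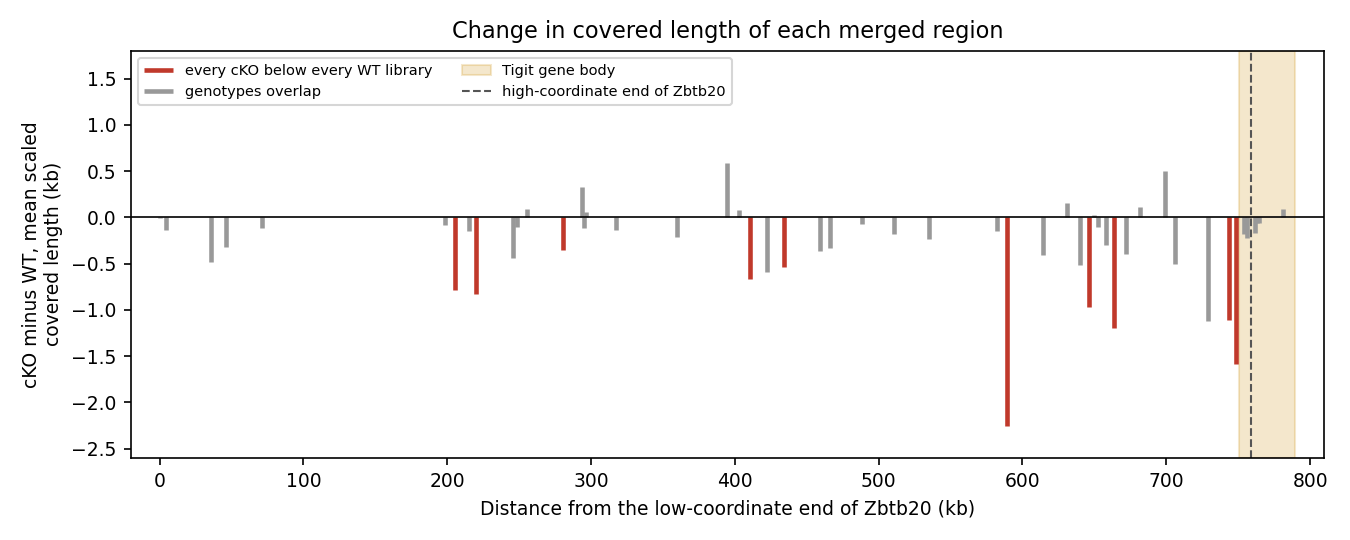
Difference in mean scaled covered length (cKO minus WT, kb) of each of the 51 merged regions, against the distance of its centre from the low-coordinate end of Zbtb20 in kb. The 10 regions where every cKO library lies below every WT library (red) begin between 204131 and 745966 bp from that end, and the Tigit gene body (shaded) holds only small differences.

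At the edges of the window, the first region inside on the low side was the 5′ end of Zbtb20 described above, 18341 bp from the edge. The first outside lay 62033 bp beyond the edge, at 42792630 to 42793656, with 556, 657 and 300 bp in cKO and 444, 842 and 0 bp in WT. On the high side the last region inside ended 28027 bp before the edge. The first outside, at 43701814 to 43702161, had a peak of 310 scaled bp in WT replicate 1 alone.

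Neighbouring genes were tested in the same fit. Of 15 protein-coding genes within 1 Mb, 0 passed the limma test (adjusted p below 0.05 over all windows, Benjamini-Hochberg) and 1 had an unadjusted p under 0.05, against 1558 of all 15355 windows (10.1%). Their median log2 change was -0.05, against 0.03 over all tested windows, of which 9039 were positive and 6316 negative. The nearest on the Tigit side, the dopamine receptor gene Drd3, had 3295 ± 191 bp in cKO and 3282 ± 735 bp in WT (SD, n = 3 each, limma adjusted p = 0.971). Qtrt2, a subunit of the tRNA-guanine transglycosylase, had the lowest p, with 1763 ± 37.0 bp in cKO and 2340 ± 313 bp in WT (SD, n = 3 each, log2 change -0.32 ± 0.10, SE, limma adjusted p = 0.308). The Qtrt2 change was -0.059 among peaks of -log10 q 5 or more and -0.068 in lists cut to equal length. On the Zbtb20 side, Gap43, a growth cone protein gene, had 12332 ± 390 bp in cKO and 12746 ± 671 bp in WT (SD, n = 3 each, limma adjusted p = 0.928).

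TIGIT partners were described next. Of 8 genes of the receptor system 5 were tested, 0 passed by limma in either direction and 0 had an unadjusted p under 0.05 (10.1% of all windows), with a median log2 change of 0.10. The competing receptor genes Cd226 and the related Pvrig had 0 bp in every library, and Cd96 was too short to be tested. The ligand genes Pvr and Nectin2, which encode cell adhesion proteins, had log2 changes of 0.10 ± 0.11 and 0.18 ± 0.11 (SE, limma adjusted p = 0.847 and 0.657). Nectin3, another TIGIT ligand, had -0.09 ± 0.10 (adjusted p = 0.839) and Nectin1 0.20 ± 0.10 (adjusted p = 0.591).

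The BTB zinc-finger family, to which Zbtb20 belongs, had 44 tested members, with 0 passing by limma, 3 at an unadjusted p under 0.05 (10.1% of all windows), 20 positive and 24 negative, and a median log2 change of -0.0046. Zbtb34 had the lowest p of them, with 2500, 2190 and 2838 bp in cKO and 3771, 2953 and 3659 bp in WT (log2 change -0.40 ± 0.11, SE, limma adjusted p = 0.246). The genotypes did not overlap at Zbtb34. Zbtb43 and Zbtb7c had log2 changes of -0.33 ± 0.13 and -0.39 ± 0.16 (SE, adjusted p = 0.407 and 0.449). The Zbtb7c change was -0.67 without cKO replicate 3 or WT replicate 3, -0.25 without WT replicate 2 and -0.035 among peaks of -log10 q 5 or more. Hic2, a transcriptional repressor gene, had 0.21 ± 0.10 (adjusted p = 0.508).

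Neocortical genes that ZBTB20 is known to bind and repress in the developing mouse hippocampus were measured in the same fit. Of 11 tested, 0 passed by limma and 3 had an unadjusted p under 0.05 (10.1% of all windows), with 3 positive, 8 negative and a median log2 change of -0.03. Foxp2, a forkhead transcription factor gene of deep cortical layers, had 15799, 17298 and 16144 bp in cKO and 21584, 23091 and 23205 bp in WT. The genotypes did not overlap, and the log2 change was -0.45 ± 0.10 (SE, limma adjusted p = 0.109). With a pseudocount of 2000 bp Foxp2 passed (limma adjusted p = 0.0385). Cux1 and Rorb, transcription factor genes of the upper and middle cortical layers, had log2 changes of -0.33 ± 0.11 and -0.26 ± 0.11 (SE, limma adjusted p = 0.322 and 0.436). In lists cut to equal length the Cux1 and Rorb changes were -0.15 ± 0.15 and -0.15 ± 0.18 (SE).

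The windows whose scaled length followed that of Zbtb20 most closely over the 6 libraries were those of Mybpc2, Gli3 and Pde3a (Pearson r of log2 lengths 0.997, 0.994 and 0.992). Gli3, a transcription factor gene of the Hedgehog pathway that patterns the dorsal forebrain, had 42919, 38858 and 42594 bp in cKO and 61259, 70795 and 52858 bp in WT. For Tigit they were Slc51a, Wdr20 and Arhgef26 (r = 0.991, 0.990 and 0.986). Arhgef26, a guanine nucleotide exchange factor gene, had 6344, 6541 and 6497 bp in cKO and 9147, 10183 and 8008 bp in WT. With 6 points that share scaling and batch, r above 0.9 was reached by 233 windows for Zbtb20 and 222 for Tigit, so these values describe likeness only.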

How the data were processed

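H3K27ac was measured in 6 libraries (3 cKO, 3 WT). The tools named, per the submitters' processing notes, are MACS2 2.1.1, Bowtie2 2.2.8, cutadapt and FastQC, and the build is mm10. Their roles and parameters, and the control for peak calling, were not given in the sources used here. Each library has its own deposited list of broad peaks, with a fold enrichment ratio, a -log10 p and a -log10 q per peak from the authors' peak caller (lowest -log10 q 1.31 to 1.39). These scores only rank, filter or describe peaks within a list.

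Peaks of the 6 lists that overlapped or touched were merged into regions, and any overlapping peak counted a library as present. Covered length means the bases that peaks occupy in a region or gene window (gene body plus 20 kb on both sides, RefSeq GRCm38.p6, the assembly behind mm10). It was scaled to the mean total over all gene windows. Gene windows with a mean of at least 1000 bp were fitted as log2 of scaled length plus 500 bp by limma 3.58.1 (R 4.3.3, batch as covariate, Benjamini-Hochberg). Other steps used Python 3.11.15, numpy 2.4.6, pandas 2.3.3 and matplotlib 3.10.9. The RefSeq table gives no exons. Of 45 BTB zinc-finger genes listed 44 were in it. Library batch was read from library identifiers.

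Lengths were simulated for the cKO minus WT comparison over 15355 windows, with all planted changes longer in cKO. Of these, 11 of 67 changes of 0.5 (log2), 52 of 67 of 1 and 65 of 66 of 2 were recovered. There were 3 false calls. The noise was independent between libraries, with no batch effect and no scaling. Shortening in cKO was not simulated, so how often changes like those of this locus would be recovered is unknown.

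The members, lists, tests and naming rules were chosen with earlier results of these data known. Named were the regions found in 1 genotype only, the 10 with the largest difference in mean scaled length, the 3 strongest and those at start windows, up to 4 genes per list with the smallest p, neighbours within 1 Mb, and 3 most similar windows per gene. One gene that this rule names is not reported here. The region at 43571854 to 43578149 and the neighbours singled out were chosen after their values were seen. Alternatives were stricter peaks, equal-length lists, each library left out, other scalings, pseudocounts and windows, no filter, no batch covariate, a replicate block, and other merging and overlap rules.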

Additional observations from a re-analysis of the deposited data

How the results depend on the processing

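The Zbtb20 and Tigit log2 changes were negative in every alternative run. The Tigit log2 change of -1.11 became -0.73 with a minimum -log10 q of 5 per peak, -0.74 ± 0.67 (SE) in the gene body alone and -0.34 ± 0.55 without the part inside Zbtb20 (SE from the spread within each genotype). In both of the last pair the genotypes overlapped, and in the gene body the batch B libraries had 0 bp. The value without the part inside Zbtb20, chosen after seeing the data, leaves out the stretch that holds most peaks, and for the stricter peaks the cause was not tested. With each library left out the Tigit window was at -1.27 to -0.97. The Zbtb20 log2 change of -0.38 became -0.46 without scaling and was -0.43 to -0.33 with each library left out. Regions with a peak in all 3 WT and no cKO library numbered 1 among stricter peaks, 1 in equal-length lists, 1 when at least 50% of a region had to be covered, and 2 to 6 with a library left out, against 2. The region among stricter peaks was at 43079820 to 43081625, and the one under the 50% rule at 43621655 to 43626469. Both had a peak in all 6 full lists. Neither of the 2 regions found in WT only in the full lists met either rule. The count of regions found in cKO only was 0 to 1 with a library left out. Regions shorter in every cKO library numbered 11 to 19 with a library left out and those longer 0 to 2, where fewer libraries make non-overlap easier. Among related and neighbouring genes 1 passed with a pseudocount of 2000 bp, against 0.

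Signs turned for 5 genes that were not called. Drd3 turned to -0.0039 among stricter peaks, -0.014 in equal-length lists, -0.049 without scaling, and -0.025 to 0.14 with a library left out. Nectin3 turned to 0.066 among stricter peaks and 0.0088 in equal-length lists, Gap43 to 0.024 and Wdr20, otherwise at -0.44, to 0.021 among stricter peaks, and Lsamp to 0.058 without cKO replicate 2, where leaving out any 1 library gave -0.45 to 0.058. Over all windows 43 were called, against 21 among stricter peaks, 13 without the batch covariate, 12 and 109 with pseudocounts of 100 and 2000 bp, 1 without the filter, 1 without scaling, 23 with quantile normalization and 109 scaled to the genome-wide total, an alternative added after seeing the data. With a library left out the count was 2 to 66.

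Same-numbered libraries were not treated as pairs in the main fit. Their deviations from the genotype means correlated at 0.13, 0.06 and 0.26. Differently numbered libraries of batch A gave 0.17 and 0.01, and those across batches -0.23 to -0.06. Replicate 3 is alone in batch B, so its value cannot be told apart from batch. With a replicate block the log2 changes of Tigit and Zbtb20 were -1.11 and -0.38, equal to those with the batch covariate by the balance of the design, and 64 windows were called. Depth in reads is unknown, so a shorter peak cannot be assigned a counting error.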
